A study of Mus musculus with 45 samples.

Results

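The general transcription factors and the Mediator complex were followed as 77 protein-coding genes among the 21897 protein-coding genes of the deposited tables. Members were chosen by symbol alone: Tbp, the Taf genes, the Gtf2 and Gtf3 genes and the Med genes that carry a number. They fell into 24 genes of TBP and the TAFs, 23 other general factors and 30 Mediator subunits. RNA polymerase II starts transcription only after general factors assemble on a promoter. TFIID, made of the TATA-binding protein TBP and its associated factors (TAFs), recognizes the start region, and TFIIA and TFIIB steady it. TFIIF comes in with the polymerase, and TFIIE then recruits TFIIH, which opens the DNA and phosphorylates the polymerase tail. Mediator joins activators bound at enhancers or promoters to that machinery through its head, middle and tail modules, and a detachable kinase module restrains it. TFIIIA and TFIIIC serve RNA polymerase III, and a set of TAFs outside TFIID serves RNA polymerase I or the SAGA coactivator. Gtf2i and its relatives carry the general-factor name but are known as sequence-specific regulators.

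The study degraded GABPA, an ETS-family activator of many housekeeping promoters, in mouse embryos and embryonic stem (ES) cells and compared RNA with vehicle controls. Every library, controls included, came from the genotype Gabpa-dTAG/dTAG, in which both alleles carry a degradation tag, so that the ligand dTAG13 removes the protein. Embryos came from in vitro fertilization and received 1 μM dTAG13 or DMSO: from 6 to 30 h post-fertilization (hpf) for late 2-cell embryos (n = 3 per group), from 42 hpf for morulae (n = 2 per group) and from 84 to 100 hpf for the inner cell mass labelled E4.5 ICM (n = 2 per group). The 2iES cells, ES cells grown with 2 inhibitors that hold the naive state, received 0.5 μM dTAG13 for 24 h or DMSO (n = 2 per group), and come from E14 cells tagged on both alleles, from which single clones were picked. The inner cell mass was freed of outer trophectoderm by immunosurgery and holds both epiblast (EPI) and primitive endoderm (PrE). The study calls its RNA replicates biological, but the labels name no embryo pool or culture for each library, and p-values measure the spread between these libraries, which may in part be technical.

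Libraries held 9457933 to 27660132 estimated read counts, fewest in the morula. Gabpa mRNA, which degradation of the protein does not remove, was higher with dTAG13 in 2iES (7.86 ± 1.15 FPKM with DMSO and 14.6 ± 0.134 with dTAG13, SD, n = 2; log2 fold change 0.93, adjusted p = 0.0014), so it is no check of the treatment. The 10 EPI markers were all detected at a mean of 1 FPKM or more in control E4.5 ICM and control 2iES, as were the 10 PrE markers in control E4.5 ICM. With dTAG13 the summed EPI markers of E4.5 ICM lay at 544.1 to 556.5 FPKM against 1143 to 1162 in controls, and the summed 11 trophectoderm (TE) markers lay at 962.7 to 971.6 against 171.0 to 171.9. Of those TE markers 10 were past the adjusted p upwards and 7 reached a fold of 2 as well, among them Krt8 (44.4 to 297 FPKM) and Krt18 (25.8 to 525). The summed 10 PrE markers lay at 1213 to 1215 FPKM against 632.5 to 634.2. Of these 7 were past the adjusted p upwards, only 1 of them with a fold of 2 as well, and 2 downwards. Such sums are set mostly by the most abundant genes. In 2iES the summed EPI markers lay at 522.3 to 555.1 FPKM with dTAG13 against 981.0 to 996.4. In bulk RNA, fewer cells of a type and less RNA per cell cannot be told apart, and the part of these shifts in the members' values was not tested. The spread between E4.5 ICM libraries was also by far the smallest (biological coefficient of variation 0.0237, against 0.159 to 0.284 at the other stages), so very small differences passed the test there.

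Promoter sequences are shown first for the members that were called lower at 2 or more stages, since GABPA recognizes ETS sites. Only the word CCGGAAG, called the core below, was searched for. RefSeq windows of GRCm38.p6, 250 bases before to 50 after each start, were matched to 69 of the 77 members, and Med8, Med23, Med24, Med30, Taf2, Taf4b, Taf7 and Gtf2e2 had no entry. The stretches run from 100 bases before the start to 20 after it, 5′ to 3′ on the gene's strand, with CCGGAAG or its reverse complement CTTCCGG in capitals. Taf10, which holds neither word in its window, and the first 120 bases of the Gtf3c1 window, the one member called higher at 2 stages, are given for comparison. Looser forms of the site, such as gcggaag in the Taf10 stretch, were not searched for and are not marked.
Med10 (chr13:69809782-69809901, + strand): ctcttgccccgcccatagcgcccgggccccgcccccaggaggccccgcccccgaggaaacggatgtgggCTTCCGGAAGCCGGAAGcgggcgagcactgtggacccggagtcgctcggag
Med18 (chr4:132463902-132464021, - strand): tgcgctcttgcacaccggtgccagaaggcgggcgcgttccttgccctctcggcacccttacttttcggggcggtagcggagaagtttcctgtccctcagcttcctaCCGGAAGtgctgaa
Taf12 (chr4:132274275-132274394, + strand): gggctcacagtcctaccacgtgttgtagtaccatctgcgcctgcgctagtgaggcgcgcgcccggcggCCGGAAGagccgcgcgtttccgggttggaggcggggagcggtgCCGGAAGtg
Taf1c (chr8:119605187-119605306, - strand): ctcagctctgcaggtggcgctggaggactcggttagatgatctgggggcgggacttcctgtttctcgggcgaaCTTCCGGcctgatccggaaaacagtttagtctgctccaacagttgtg
Taf10 (chr7:105744319-105744438, - strand): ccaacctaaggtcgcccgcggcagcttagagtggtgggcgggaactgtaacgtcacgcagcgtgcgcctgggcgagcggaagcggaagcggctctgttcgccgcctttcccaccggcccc
Gtf3c1 (chr7:125707819-125707938, - strand): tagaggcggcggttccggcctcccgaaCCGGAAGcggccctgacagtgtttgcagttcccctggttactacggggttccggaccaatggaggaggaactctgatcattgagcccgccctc

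The core on either strand was in a window of 26 of the 69 matched members (37.7%) and of 2683 of all 27025 genes in the promoter table (9.93%). Counted by outcome, it was present for 8 of the 14 members called lower at some stage that had an entry (Gtf2a2, Gtf2h2, Gtf2ird2, Gtf3a, Med10, Med18, Taf12 and Taf1c), for 1 of the 6 called higher (Gtf3c1) and for 17 of the 49 called at no stage. In Taf12 the matches began 32 bases before the start and at base 12, counting the start as 1, in Med18 at base 7, and in Taf1c 27 bases before it. Med10 has a second RefSeq start upstream whose window holds no match, and the window printed lies at the start inside the gene, where 3 overlapping or adjacent matches began 31, 28 and 21 bases before it. A match is a description of the letters and not a measured binding site.

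**Figure D1:**
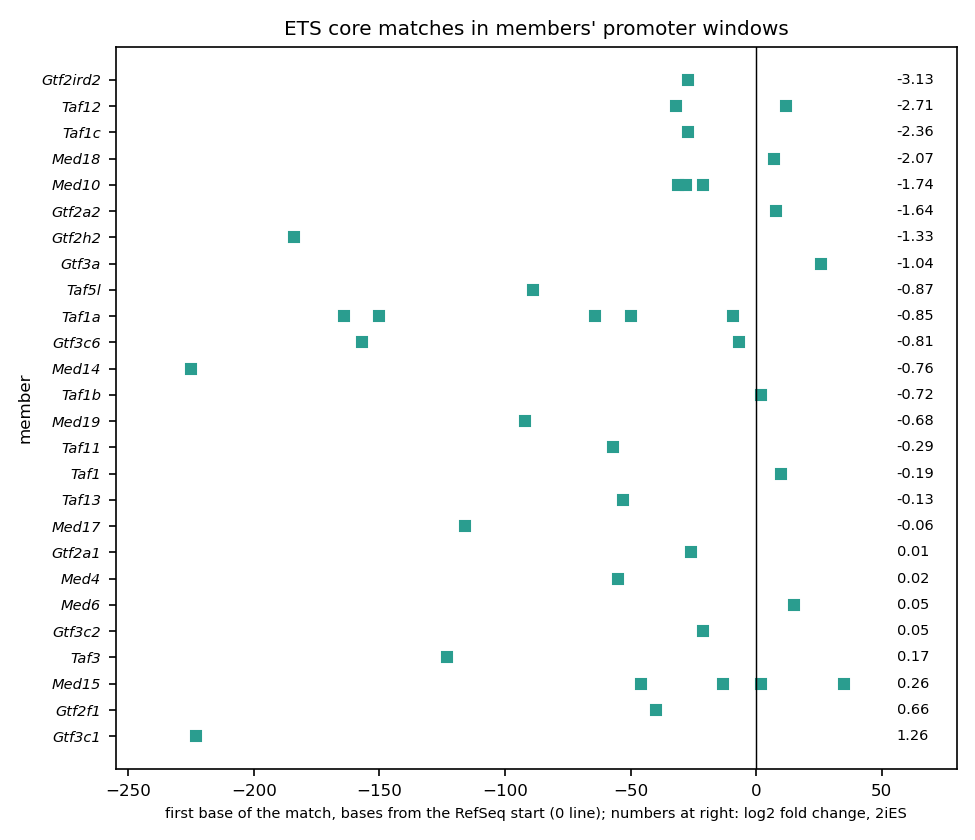
Position of each CCGGAAG match, on either strand, in the RefSeq promoter windows of the 26 members that hold one, in bases from the annotated start (vertical line). Rows are ordered by the log2 fold change with dTAG13 in 2iES, printed at the right, which runs from -3.13 (Gtf2ird2) to 1.26 (Gtf3c1); members with several RefSeq starts show the matches of all their windows.

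Mediator subunits made up most of the members that changed in late 2-cell embryos, the earliest stage. A gene was called when its adjusted p was under 0.05 (edgeR quasi-likelihood test, Benjamini-Hochberg over all genes tested at the stage), its fold change was at least 2 and its mean reached 1 FPKM in a group. In late 2-cell embryos 3 of the 77 members were called lower and 0 higher, beside 3.63% and 0.476% of all 17421 genes tested, and the 3 were the Mediator subunits Med8, Med10 and Med18. DESeq2 also called 0 members higher there, and 24 members had an unadjusted p under 0.05 in either direction. No share over all genes was computed for that count. By the adjusted p alone 9 members were lower (7.24% of all genes tested) and 2 higher (1.32%), and 7 of the 9 belonged to Mediator. With upper-quartile scaling these counts became 7 lower and 3 higher. Median changes were small, at -0.12 (log2) for the 30 Mediator genes, -0.0038 for TBP and the TAFs and -0.11 for the other general factors, beside 0.02 over all genes tested. Upper-quartile scaling, which raised the median of all genes by 0.12, put them at 0.0033, 0.11 and 0.01.

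Med8, a head subunit that contacts TBP and the polymerase, lies at chr4:118409337-118415782 (GRCm38). In late 2-cell embryos it stood at 114, 113 and 117 FPKM in the 3 DMSO libraries and at 30.6, 21.9 and 22.4 in those given dTAG13 (log2 fold change -2.26 ± 0.14, SE; edgeR adjusted p = 7.59e-06). In morulae the controls gave 75.3 and 106.9 FPKM and the treated libraries 84.4 and 89.3, and the groups overlapped. In E4.5 ICM it fell from 135.8 and 134.5 to 41.98 and 40.89 (-1.76 ± 0.05, adjusted p = 8.42e-29), and in 2iES from 121.3 and 131.0 to 10.8 and 8.08 (-3.78 ± 0.19, adjusted p = 3.35e-05). Med8 was thus called lower at 3 stages, with no overlap between groups at any of the 3.

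Med10, a middle-module subunit (chr13:69802395-69816104), was the other member called lower at 3 stages. It was among the most abundant members, at 796, 836 and 792 FPKM in control late 2-cell embryos against 429, 361 and 411 with dTAG13 (log2 fold change -1.08 ± 0.08, adjusted p = 2.11e-05). Morulae gave 444 and 569 with DMSO and 559 and 508 with dTAG13, E4.5 ICM 183.6 and 174.7 against 67.6 and 62.9, and 2iES 378 and 375 against 108.11 and 119.97. Its log2 fold change was -1.52 ± 0.05 in E4.5 ICM (adjusted p = 6.63e-27) and -1.74 ± 0.11 in 2iES (adjusted p = 6.97e-05), and only the morula groups overlapped. With upper-quartile scaling the late 2-cell change was -0.96 and no longer reached a fold of 2. In the GENCODE M21 annotation 90.3% of the 31-base words of Med10 transcripts also occur in Gm26819, which was not analysed here, so reads of these genes cannot be told apart by sequence.

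Med18, a head subunit (chr4:132458731-132463921), was low in late 2-cell embryos, at 2.00, 4.27 and 3.62 FPKM with DMSO and 1.45, 1.10 and 0.990 with dTAG13 (-1.5 ± 0.38, adjusted p = 0.0331). That call was lost with the replicate block (adjusted p = 0.0593), with upper-quartile scaling (adjusted p = 0.0511) and without any 1 of DMSO replicates 2 and 3 or dTAG13 replicates 1, 2 and 3 (adjusted p = 0.0592 to 0.125). In 2iES Med18 stood at 23.6 and 17.2 FPKM with DMSO and 5.57 and 5.06 with dTAG13 (-2.07 ± 0.21, adjusted p = 0.000393). In E4.5 ICM it fell from 14.8 and 16.6 to 9.83 and 10.1 (-0.83 ± 0.10, adjusted p = 1.21e-09), short of a fold of 2.

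**Figure D2:**
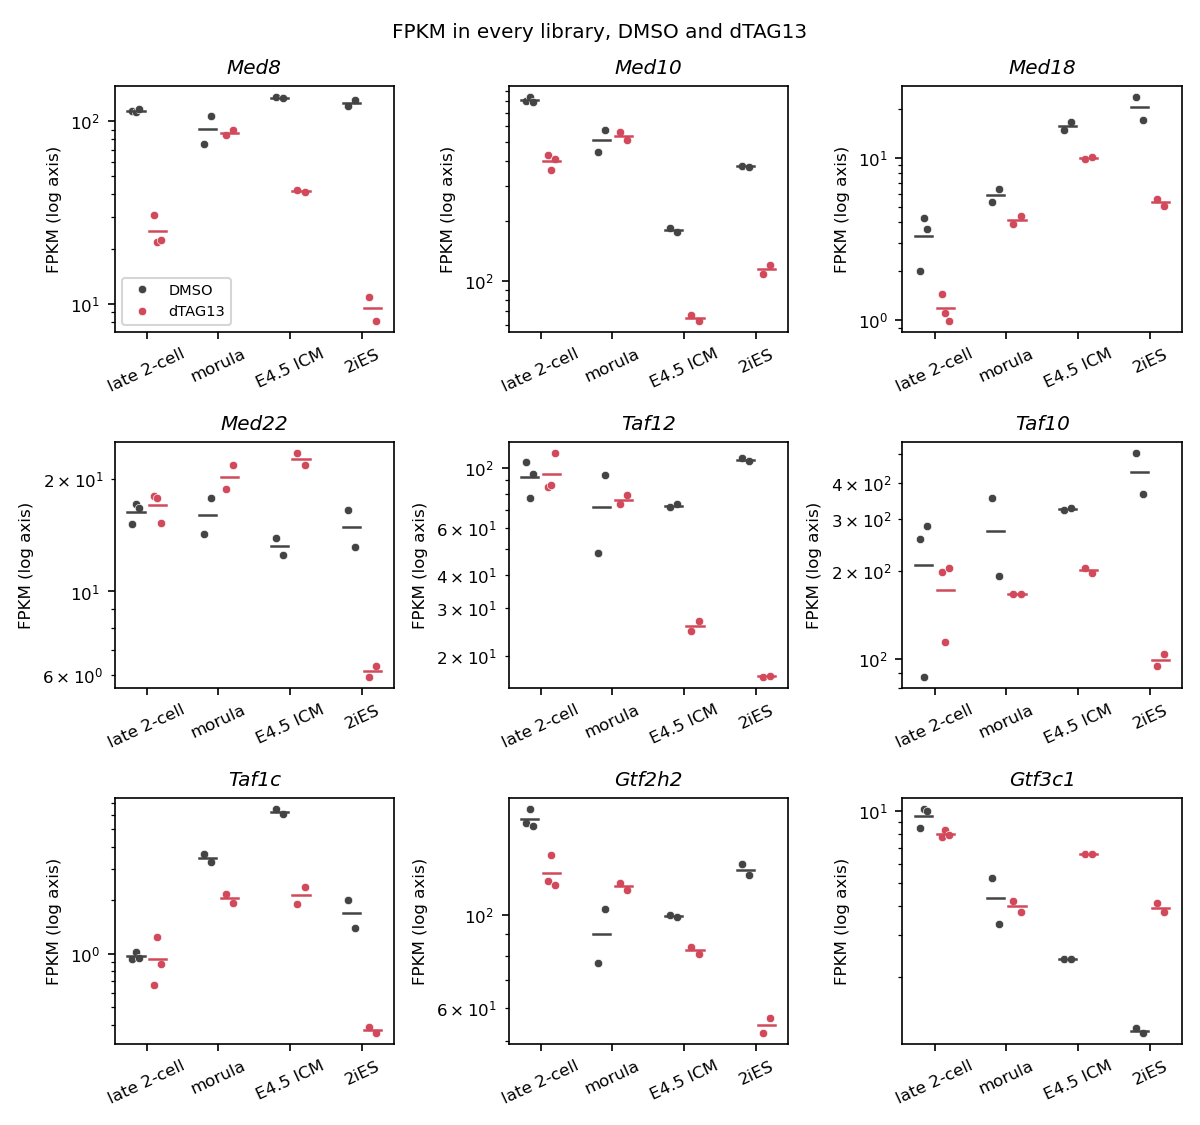
FPKM (log axis) of 9 members in every library, DMSO in dark grey and dTAG13 in red, with a bar at each group mean; each point is 1 library. Med8 and Med10 separate by treatment at every stage except the morula, Taf12 in E4.5 ICM and 2iES and Taf1c in these and in morulae, and Med22 moves in opposite directions in E4.5 ICM and 2iES.

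The modules of Mediator are given apart, with no test between them, beside 38.5% of all genes past the adjusted p downwards in E4.5 ICM and 28.1% in 2iES. Of the 7 head subunits, 5 were past the adjusted p downwards in E4.5 ICM (Med8, Med11, Med17, Med18 and Med20) and 5 in 2iES (Med8, Med11, Med18, Med20 and Med22). Med11, a small head subunit, was lower at 3 stages without reaching a fold of 2, with log2 fold changes of -0.71 in late 2-cell embryos, -0.73 in E4.5 ICM and -0.61 in 2iES. Of the 9 middle subunits, Med19, a link to the polymerase, showed the same pattern (-0.82, -0.84 and -0.68), and Med4 (-0.55) and Med7 (-0.70) were lower in late 2-cell embryos. Med21, also of the middle, was the one member past the adjusted p upwards at 3 stages, by 0.40, 0.26 and 0.35, the last not past it with the replicate block (adjusted p = 0.06). Of the 9 tail subunits, which receive most activators, 7 were past the adjusted p downwards in E4.5 ICM and 4 in 2iES, but 0 were called at any stage, and Med25 was the lowest at both (-0.86 and -0.93). Med14, the scaffold that holds the modules together, was past it in 2iES alone among the stages (-0.76, adjusted p = 0.0455).

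In the kinase module the paralogs Med13 and Med13l were called higher. Med13, which tethers the kinase to the core, stood at 2.07 and 4.15 FPKM in control 2iES and at 6.89 and 5.59 with dTAG13 (log2 fold change 1.19 ± 0.33, adjusted p = 0.0196), and its paralog Med13l at 1.65 and 2.90 against 5.26 and 4.78 (1.12 ± 0.26, adjusted p = 0.0109). Both changes fell under a fold of 2 without DMSO replicate 1 (0.74 and 0.76), the replicate with the lower levels of both. Med13 was also past the adjusted p upwards in E4.5 ICM (0.82), where Med13l was at 0.08. Med12, the activator of the module's kinase, was lower in 2iES (-0.89, adjusted p = 0.0183).

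In all, Mediator had 2 of 30 subunits called lower and 0 higher in E4.5 ICM, and 5 called lower and 2 higher in 2iES. The background was high at both stages: 13.2% of 15840 genes tested were called lower and 12.1% higher in E4.5 ICM, and 15.6% of 15511 lower and 12.4% higher in 2iES. Over all members, 6 of 76 tested were called lower (7.9%) and 2 higher in E4.5 ICM, both shares below those of all genes, and 13 of 77 lower (16.9%) and 5 higher in 2iES, close to the background downwards. Upper-quartile scaling gave 9 lower and 7 higher in 2iES. By the adjusted p alone, 36 were lower and 20 higher in E4.5 ICM (38.5% and 38.4% of all genes), and 31 lower and 13 higher in 2iES (28.1% and 26.5%). A fit of all 18 libraries gave 22 lower and 8 higher in E4.5 ICM, and in 2iES the counts were 20 and 6 without dTAG13 replicate 1 and 18 and 8 without dTAG13 replicate 2. The median log2 fold change of the Mediator genes was -0.18 in E4.5 ICM and -0.47 in 2iES, beside 0.01 and 0.03 over all genes tested. Upper-quartile scaling raised the median of all genes by 0.10 and 0.18 at these stages. In morulae 0 of 73 members tested were called in either direction (edgeR), beside 0.198% of 13667 genes lower and 0.154% higher. DESeq2 also called 0 there, and 11 members had an unadjusted p under 0.05, a count for which no share over all genes was computed. Without DMSO replicate 2 the counts were no longer 0. That fit held a single control library, so its spread came from the dTAG13 libraries alone, and its calls are not read.

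Among TBP and the TFIID TAFs, Taf12 was called lower in E4.5 ICM and 2iES, and Taf10 in 2iES alone. Taf12, a histone-fold subunit that TFIID shares with SAGA (chr4:132274375-132295766), lay at 71.7 and 73.3 FPKM in control E4.5 ICM and at 24.7 and 26.9 with dTAG13 (-1.59 ± 0.05, adjusted p = 8.23e-26). In 2iES it fell from 108.8 and 106.2 to 16.7 and 16.8 (-2.71 ± 0.12, adjusted p = 2.39e-05). In late 2-cell embryos the controls gave 105.4, 77.3 and 94.9 and the treated libraries 84.8, 86.8 and 113.6, and the groups overlapped there as in morulae.

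Taf10, a further subunit shared with SAGA (chr7:105739393-105744361), was called in 2iES, where it fell from 504 and 366 FPKM to 94.98 and 104.61 (-2.13 ± 0.18, adjusted p = 0.000196). In E4.5 ICM it fell from 324 and 327 to 205 and 197 (-0.73 ± 0.04, adjusted p = 1.37e-19). Its exons overlap those of Ilk, with 42.3% of its 31-base words in common, and the libraries do not keep strand. Ilk was itself lower at both stages, by 0.67 and 1.66 on the log2 scale, so the reads of this pair cannot be fully separated.

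Tbp, the subunit that bends TATA DNA and the one factor used by all 3 polymerases (chr17:15499888-15528379), was not called at any stage. It stood at 56.4 and 57.3 FPKM in control 2iES and at 29.6 and 33.0 with dTAG13 (-0.87 ± 0.12, adjusted p = 0.0013), and at 50.1 and 46.3 against 39.1 and 37.0 in E4.5 ICM (-0.47 ± 0.05, adjusted p = 1.41e-10). The groups did not overlap at either. Tbp shares 17.1% of its 31-base words with the overlapping Pdcd2, which was lower at both (-1.26 in 2iES and -2.21 in E4.5 ICM). The change of Tbp was -0.27 in late 2-cell embryos and 0.40 in morulae, where 1 control library lay at 17.4 FPKM and the others between 26.4 and 27.3. Of the 14 genes of TBP and the TFIID TAFs, 9 were past the adjusted p downwards and 3 upwards in E4.5 ICM (38.5% and 38.4% of all genes), against 4 and 2 in 2iES (28.1% and 26.5%). Taf4, which holds the TFIID lobes together, was called higher in 2iES, from 1.69 and 1.68 to 4.25 and 3.32 FPKM (1.13 ± 0.19, adjusted p = 0.0028), and fell just under a fold of 2 without dTAG13 replicate 1 (0.92). Taf7 was past the adjusted p downwards (-0.41) and Taf6 upwards (0.56) in late 2-cell embryos, the latter not past it with the replicate block.

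The TAFs outside TFIID included further large changes. Taf1c, a subunit of the SL1 factor that selects ribosomal DNA promoters for RNA polymerase I, fell from 6.5 and 6.1 FPKM to 1.90 and 2.38 in E4.5 ICM (-1.58 ± 0.12, adjusted p = 2.79e-14) and from 2.01 and 1.40 to 0.39 and 0.36 in 2iES (-2.36 ± 0.33, adjusted p = 0.0013). The other SL1 subunits did not move as one: in 2iES Taf1a (-0.85) and Taf1b (-0.72) were past the adjusted p downwards and Taf1d (1.00) was called higher. Taf1d was at the threshold of fold, and under it in DESeq2 (0.998), without the filter on low counts (0.92) and without DMSO replicate 1 or either dTAG13 replicate (0.87 to 0.99). Of the SAGA subunits, Taf5l was past the adjusted p downwards in E4.5 ICM (-0.67) and 2iES (-0.87), and Taf6l was called lower in 2iES (-1.07) with a change of -0.10 in E4.5 ICM. Without DMSO replicate 1 or with upper-quartile scaling Taf6l in 2iES was at -0.85 and -0.89. Taf15, an RNA-binding protein of the FET family, was called lower in E4.5 ICM, from 6.49 and 8.93 FPKM to 2.45 and 3.07 (-1.46 ± 0.22, adjusted p = 3.11e-07), whereas 2iES gave 12.0 and 14.6 with DMSO and 16.1 and 17.9 with dTAG13 (0.12).

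Over the group, 13 of 23 tested TBP and TAF genes were past the adjusted p downwards and 4 upwards in E4.5 ICM, with a median log2 fold change of -0.39, and 9 and 5 of 24 in 2iES, with a median of -0.21. Over all genes tested these shares were 38.5% and 38.4% in E4.5 ICM and 28.1% and 26.5% in 2iES. With upper-quartile scaling, which raised the median of all genes by 0.10 and 0.18, these became -0.29 and -0.03.

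The other general factors were divided between the 2 directions. For TFIIA, Gtf2a2, its small subunit (chr9:70012550-70022866), fell in 2iES from 504 and 497 FPKM to 157 and 178 (-1.64 ± 0.11, adjusted p = 9.1e-05) and in E4.5 ICM from 217 and 201 to 125.3 and 119.6 (-0.85 ± 0.04, adjusted p = 3.28e-20). Gtf2a1, the precursor of the other subunits, was at 0.01 in 2iES and was not past the adjusted p at any stage. Its germ-cell relative Gtf2a1l was called higher in E4.5 ICM at a low level, 1.75 and 1.59 against 3.74 and 4.19 FPKM (1.5 ± 0.22, adjusted p = 1.37e-07).

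For TFIIH, the core subunits Gtf2h2 and Gtf2h3 were called lower in 2iES. Gtf2h2 (chr13:100460218-100492579) stood there at 132.7 and 124.8 FPKM against 52.2 and 56.7 (-1.33 ± 0.13, adjusted p = 0.000289), and was past the adjusted p downwards in late 2-cell embryos (-0.52) and E4.5 ICM (-0.44) too. Gtf2h3 fell from 71.4 and 63.2 to 29.3 and 33.0 (-1.12 ± 0.12, adjusted p = 0.000534), at -0.93 with upper-quartile scaling. Gtf2h1 (-0.56) and Gtf2h4 (-0.77) were also past the adjusted p downwards in 2iES, and Gtf2h5, the smallest core subunit, upwards (0.55), so all 5 Gtf2h genes were past it there, 4 of them downwards, beside 28.1% of all genes tested downwards and 26.5% upwards. Ercc3, the TFIIH helicase, which the symbol rule leaves out, was lower still: 9.40 ± 0.70 FPKM with DMSO and 0.87 ± 0.41 with dTAG13 in 2iES (SD, n = 2; -3.92 ± 0.28, adjusted p = 1.09e-04), and -1.95 in E4.5 ICM.

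TFIIB (Gtf2b) was past the adjusted p upwards in E4.5 ICM (0.54) and at -0.10 in 2iES. Gtf2e1 of TFIIE was past it upwards at both (0.72 and 0.92), and Gtf2f1 of TFIIF as well (0.15 and 0.66). For RNA polymerase III, Gtf3a (TFIIIA), which binds 5S rRNA genes, was called lower in 2iES, from 111.4 and 84.9 FPKM to 46.4 and 46.6 (-1.04 ± 0.16, adjusted p = 0.0018). That call fell under a fold of 2 without DMSO replicate 1 (-0.82), with upper-quartile scaling (-0.86), with library totals as the scaling and in a fit of all 18 libraries (-0.98). Gtf3a shares 54.2% of its 31-base words with the overlapping Mtif3.

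Gtf3c1 (chr7:125640954-125707780), the largest TFIIIC subunit, which reads the internal B box of tRNA genes, was the one member called higher at 2 stages. It stood at 2.39 and 2.39 FPKM in control E4.5 ICM and at 6.57 and 6.56 with dTAG13 (1.44 ± 0.08, adjusted p = 2.6e-18), and at 1.22 and 1.17 against 4.09 and 3.76 in 2iES (1.26 ± 0.17, adjusted p = 0.0011). In late 2-cell embryos, where it was more abundant, it was at 8.45, 10.2 and 9.98 against 7.80, 8.28 and 7.94. The groups there did not overlap, with the dTAG13 libraries lower, and the change (-0.34) did not pass the test. Of the other TFIIIC genes, Gtf3c6 was past the adjusted p downwards at E4.5 ICM and 2iES (-0.60 and -0.81), Gtf3c3 upwards at both (0.15 and 0.40), and Gtf3c4 upwards in E4.5 ICM (0.92).

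Gtf2ird2, of the TFII-I family, was called lower in E4.5 ICM, at 1.16 and 1.05 FPKM with DMSO and 0.330 and 1.04 with dTAG13 (-1.37 ± 0.28, adjusted p = 3.82e-05). It rested on few counts (20 to 67 a library), its FPKM ratio was smaller (-0.62), and the call was lost in a fit of all 18 libraries (adjusted p = 0.171). In 2iES its mean was under 1 FPKM in both groups. The median log2 fold change of the other general factors was 0.08 in E4.5 ICM and 0.01 in 2iES.

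**Figure D3:**
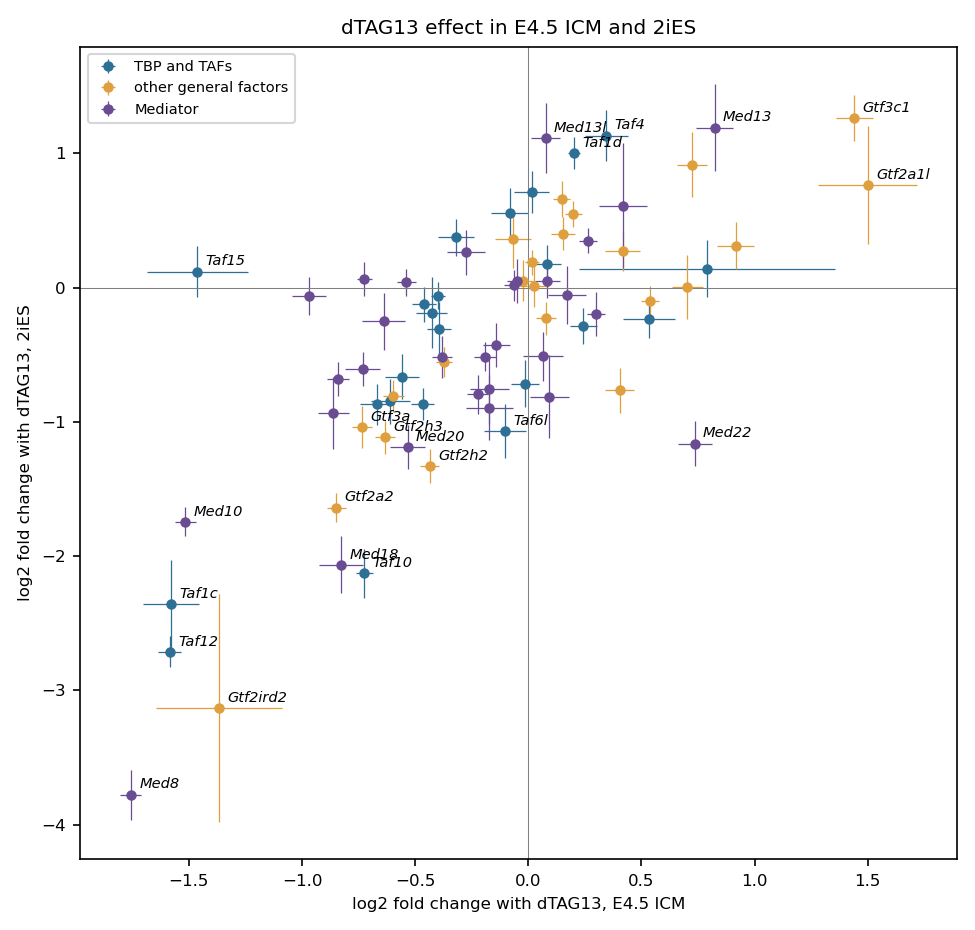
Log2 fold change with dTAG13 of each member in E4.5 ICM (horizontal) and 2iES (vertical), with standard errors as bars and called members named. Med8, Taf12, Taf1c and Med10 lie low on both axes, Gtf3c1 high on both, and Med22 and Taf15 away from the diagonal.

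Between E4.5 ICM and 2iES, which share no library, 24 members were past the adjusted p downwards at both. These were 66.7% of the 36 lower in E4.5 ICM and 77.4% of the 31 lower in 2iES, and the same shares over all genes tested were 49.9% and 69.9%. A further 9 were upwards at both, and 2 had opposite signs, Med22 and Gtf2h4. No share over all genes was computed for these counts. Of the called members, Med8, Med10, Taf12 and Taf1c were lower at both and Gtf3c1 higher at both. Those 4 were 66.7% of the 6 called lower in E4.5 ICM and 30.8% of the 13 in 2iES, beside 48.7% and 42.2% over all genes. The difference between the effects was itself tested by an interaction term over all 18 libraries, and 12 of 77 members passed an adjusted p of 0.05, beside 17.4% of 21915 genes tested. The largest was at Med8, where the change in 2iES was lower by 1.97 ± 0.27 (adjusted p = 1.24e-04). Taf12 was lower by 1.08 ± 0.29 in 2iES (adjusted p = 0.0144).

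Med22, a head subunit (chr2:26905262-26910677), was past the test in opposite directions. It stood at 13.9 and 12.5 FPKM in control E4.5 ICM and 23.4 and 21.8 with dTAG13 (0.74 ± 0.07), and at 16.5 and 13.2 in control 2iES and 5.92 and 6.32 with dTAG13 (-1.16 ± 0.17). The difference was 1.85 ± 0.23 (interaction adjusted p = 5.8e-05). With upper-quartile scaling the 2iES change was -0.98, just under the fold of 2. Gtf2h4 changed by 0.40 and -0.77. For Taf15 the difference was -1.63 ± 0.43 (adjusted p = 0.0142). These differences set an inner cell mass in which the summed TE, EPI and PrE markers had shifted beside a cell line. In the cell line the TE markers summed to 153.9 to 175.3 FPKM in controls and 179.2 to 186.3 with dTAG13. The part of the marker shift in these differences was not tested.

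Set against the morula, the late 2-cell effect was lower by 2.34 ± 0.25 for Med8 (interaction adjusted p = 9e-06) and by 1.31 ± 0.16 for Med10 (adjusted p = 5.1e-05). The corresponding differences for Gtf2h2 and Gtf2h3 were -1.27 and -1.05. Set against E4.5 ICM, the late 2-cell effects of Taf12 (1.47), Taf1c (1.39) and Taf15 (1.38) were the higher ones and that of Gtf3c1 (-1.80) the lower one. Over all members 12 of 77 passed in the first contrast and 10 of 77 in the second, beside 6.5% and 20.3% of all genes.

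Apart from treatment, the machinery itself changed between the control stages. In late 2-cell embryos the median control level was 30.4 FPKM for TBP and the TAFs, 33.8 for the other general factors and 30.7 for Mediator, against 4.37 for all genes tested. Med10 (808 FPKM), Taf1d (694) and Med29 (624) were the most abundant per length. By the morula the median of TBP and the TAFs was 8.30 FPKM, against 17.3 and 22.3 for the other groups and 6.775 for all genes tested there. The median log2 change over this step was -1.41 for TBP and the TAFs, -0.45 for the other general factors and -0.25 for Mediator, beside -0.28 for all genes.

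From late 2-cell embryos to morulae, 32 members were called lower and 4 higher in controls, beside 27.7% and 22.6% of 19830 genes tested. TBP and the TAFs made up 14 of the 32. Tbp itself went from 130.8, 174.9 and 145.2 FPKM to 17.4 and 26.5 (log2 fold change -2.66), Taf1a from a mean of 169 to 22.1 and Med27 from 254 to 30.9. Taf1c (0.97 to 3.47 FPKM) and Med12l (1.16 to 2.27) were among the 4 that rose. From the morula to E4.5 ICM 3 were lower, Med10 (-1.65), Gtf2h5 (-1.55) and Taf1 (-1.13), and 11 higher, beside 13.2% and 16.0% of all genes. The higher ones included Taf6l (2.72 to 10.7 FPKM), Gtf2h3 (14.7 to 63.2) and Gtf3a (35.5 to 97.7).

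From E4.5 ICM to 2iES 8 were lower and 14 higher (12.7% and 12.0% of all genes). Med12 (17.8 to 4.90 FPKM), Med12l (1.54 to 0.115) and Med16 (6.78 to 1.3) were lower in the cell line, and Gtf2a2 (209 to 501), Gtf2e2 (154 to 406) and Med10 (179 to 376) higher. Stage and collection differ together here and cannot be told apart.

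**Figure D4:**
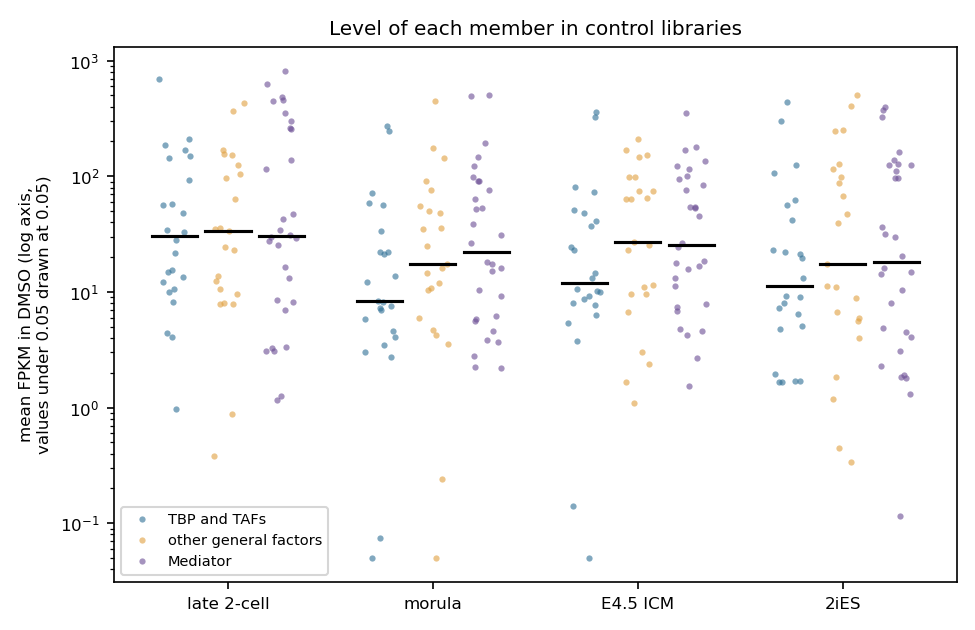
Mean FPKM (log axis) of each member in the DMSO libraries of the 4 stages, coloured by group, with a black bar at the group median; values under 0.05 are drawn at 0.05. The median of TBP and the TAFs drops from 30.4 FPKM in late 2-cell embryos to 8.30 in morulae, while the highest Mediator gene of each stage lies at 356 FPKM or more.

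Paralog pairs were followed in the same controls. Taf4b, the gonadal relative of Taf4, had the higher mean at every stage, at 32.7 against 9.94 FPKM in late 2-cell embryos, 6.96 against 3.02 in morulae, 5.44 against 3.74 in E4.5 ICM and 1.97 against 1.69 in 2iES, where the libraries of the pair overlapped. Taf7l, Taf9b and Gtf2a1l, each known from germ cells or differentiated tissues, were listed at 0 to 0.17 FPKM in morulae, and Taf7l at 0 in both control libraries of E4.5 ICM. In 2iES Taf7l was past the adjusted p upwards with dTAG13, from 1.76 and 1.57 to 4.35 and 3.05 FPKM (0.99, adjusted p = 0.0156), as was Taf4b (0.55, adjusted p = 0.0473), whereas Taf7 and Taf9b were not. Taf9 shares 70.7% of its 31-base words with Ak6, whose mean count in 2iES was 13528 against 567, so its values are uncertain. The pair Taf5 and Taf5l were both past the adjusted p downwards in E4.5 ICM (-0.32 and -0.67) and stood at 0.37 and -0.87 in 2iES, where Taf5 was not past the test. Gtf2ird1 was past the adjusted p upwards in E4.5 ICM (0.70), where Gtf2ird2 was lower.

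Subunits of the same complexes that the symbol rule leaves out were taken as a list of 44 genes. In 2iES 8 of the 43 tested were called lower (18.6%, beside 15.6% of all genes) and 0 higher, and in E4.5 ICM 4 of 43 lower (9.3%, beside 13.2%) and 0 higher. By the adjusted p alone 22 were lower and 6 higher in 2iES (51.2% and 14.0%, beside 28.1% and 26.5% of all genes). In E4.5 ICM 26 were lower and 12 higher (60.5% and 27.9%, beside 38.5% and 38.4%). In late 2-cell embryos and morulae 0 were called in either direction (edgeR). In late 2-cell embryos 4 were past the adjusted p downwards and 1 upwards (9.1% and 2.3%, beside 7.24% and 1.32% of all genes). The SAGA subunits Supt20 (-1.68 in E4.5 ICM, -2.08 in 2iES) and Supt7l (-1.65 and -1.26) and the coactivator subunit Tada3 (-1.66 in 2iES) were among the called genes, beside Taf12, Taf10 and Taf6l above. The negative elongation factor genes Nelfe (-2.15) and Nelfcd (-1.39), the pause-release kinase gene Cdk9 (-1.06) and the small nuclear RNA factor Snapc2 (-1.96) were called lower in 2iES, and the TBP inhibitor subunit Drap1 (-1.29) in E4.5 ICM.

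By position, 19 of the 77 members (24.7%) had the start of a protein-coding gene on the other strand within 1000 bases, against 10.8% of all protein-coding genes. Med20 (14.2 to 6.41 FPKM in 2iES, -1.19 ± 0.17) starts 90 bases from Bysl (-1.29), and Gtf2h3 starts 9 bases from Eif2b1 (-0.63). Tbp starts 137 bases from Psmb1, which was lower in late 2-cell embryos (-0.39, adjusted p = 0.0132) and E4.5 ICM (-0.40, adjusted p = 4.69e-17) and at 0.04 in 2iES. Med22 starts 87 bases from Rpl7a, which was at -0.19 in 2iES and 0.10 in E4.5 ICM.

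Changes above are fitted to counts, while levels are per length, and the scales parted by 0.5 or more (log2) for 5 of the members' values. A gap with unlike signs was at Med24, a tail subunit, in 2iES: 3.52 and 4.71 FPKM against 14.5 and 10.0, a log2 FPKM ratio of 1.55, with a fitted count change of -0.25 (adjusted p = 0.344). The source of that gap was not tested, and Med24 was named after its values were seen.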

How the data were processed

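RNA libraries (SMART-Seq v4 amplification and Nextera XT tagmentation, no strand kept) were trimmed with Trimmomatic (version 0.39 per the labels), aligned with STAR and quantified per gene with RSEM by the authors, who deposited expected counts and FPKM for each of the 18 libraries. FPKM are levels per transcript length and library depth. The CUT&RUN, ATAC and H3K27ac samples were not analysed here. Gene identifiers were matched to GENCODE M21 (GRCm38): 54487 of 55385 with version and 657 without it. Of 78 symbols under the rule, 1 was not protein-coding and was left out. The members, lists and tests were chosen with earlier results of these data known.

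Deposited expected counts were rounded. Genes reaching 10 counts in as many libraries as a group holds (2 or 3) were tested per stage with edgeR 4.0.16 (TMM, quasi-likelihood, Benjamini-Hochberg over all genes tested). DESeq2 1.42.0, other scalings, no filter, a pooled fit, the replicate block and leaving out each library were alternatives, and the log2 ratio of mean FPKM (pseudocount 0.1) was added after seeing the data. Interactions and control stages were fitted over all 18 libraries and the 9 control libraries. SE is the log2 fold change over the root of F. Steps were tested on simulated data. Replicates of a group differed by more than sampling noise (median chi-square 1.62 to 16.1 times that of sampling). Named were Tbp, Gabpa, members called at a stage or past the adjusted p in 1 direction at 3 stages, and the genes of listed paralog pairs, with partner subunits where called. Other members are given where counts of 5 or fewer or a module needed them, and were chosen after their values were seen. Totals were 9457933 to 27660132 counts, and precision was taken from the replicates.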

Additional observations from a re-analysis of the deposited data

Results flagged for a closer look

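Among the members named by the rule given above, 12 effects of dTAG13 differed between 2 stages by an interaction test (edgeR, adjusted p under 0.05) and by at least 1 on the log2 scale. Each difference is the first stage minus the second. Between E4.5 ICM and 2iES these were Med22 (1.85), Med8 (1.97), Taf12 (1.08) and Taf15 (-1.63). Between late 2-cell embryos and E4.5 ICM they were Gtf3c1 (-1.80), Taf12 (1.47), Taf15 (1.38) and Taf1c (1.39). Between late 2-cell embryos and morulae they were Gtf2h2 (-1.27), Gtf2h3 (-1.05), Med10 (-1.31) and Med8 (-2.34). Med22 was past the test in opposite directions at its stages, while Med8 and Taf12 were lower in both E4.5 ICM and 2iES and differed in size. The contrasts share the libraries of late 2-cell embryos or of E4.5 ICM, so they are not independent of each other.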

How the results depend on the processing

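No named fold change that was past the test changed sign under the alternatives run, while small ones that were not did, and so did medians near 0, as given above for late 2-cell embryos. Late 2-cell embryos: the members called lower went from 3 to 1 with upper-quartile scaling, and those past the adjusted p upwards from 2 to 1 with the replicate block and to 0 to 1 when 1 library was left out. Morulae: the counts of 0 became 5 upwards past the adjusted p in 1 fit of all 18 libraries and 2 with the replicate block, and with 1 library left out they ranged over 0 to 1 called lower, 0 to 4 called higher, 0 to 1 past the adjusted p downwards and 0 to 6 upwards, the highest each time without DMSO replicate 2. E4.5 ICM: the pooled fit, which lends these libraries the spread of the others, gave 22 lower and 8 higher past the adjusted p in place of 36 and 20. 2iES: leaving out 1 library gave 3 to 6 called higher (3 without DMSO replicate 1 or dTAG13 replicate 1), 18 to 37 past the adjusted p downwards and 6 to 16 upwards, with 18 and 8 without dTAG13 replicate 2 and 20 and 6 without dTAG13 replicate 1.

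Upper-quartile scaling moved the median of all genes by 0.12, 0.10 and 0.18 (log2) in late 2-cell embryos, E4.5 ICM and 2iES. With the longer core CCGGAAGT the share of members with a match was 20.3%, against 4.31% of all genes. Deviations of same-numbered libraries correlated at 0.02 to 0.05 in late 2-cell embryos, 0.01 in morulae and E4.5 ICM and -0.13 in 2iES. With 2 or 3 libraries a group these values cannot show whether the numbers pair libraries, and the labels do not say. Beyond the counts above, among the named members the replicate block ended the test result of Med18 (adjusted p = 0.0593) and Taf6 (0.0502) in late 2-cell embryos and of Med21 in 2iES (0.0600), and Gtf2h2 passed in morulae (0.0483). With 2 libraries a group at most stages, depth limits mainly the morula and members near 1 FPKM.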
